A study of Mus musculus with 13 samples.

Results

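The replication-dependent histone genes code for the proteins that package newly made DNA. The members were the protein-coding genes whose mouse symbol in GENCODE M21 begins with Hist1h, Hist2h, Hist3h or Hist4h. M21 holds 67 of them: 6 genes of the linker histone H1, 18 of H2A, 18 of H2B, 12 of H3 and 13 of H4. Of these, 65 were among the 46679 genes of the deposited tables, and Hist1h2bh and Hist1h2bm were not analysed here. A further 3 genes with such symbols are annotated as pseudogenes and were left out. On GRCm38 the annotation places 54 members on chromosome 13, 10 on chromosome 3, 2 on chromosome 11 and 1 on chromosome 6.

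RNA was sequenced from FVB mice, all female and 10 weeks old, in 13 libraries from 8 mice. Normal lung came from 4 mice without a tumor (6 libraries, since lungs 6886 and 6888 were each prepared in 2 preparation batches). Tumor-bearing lung came from 4 mice (6877, 6879, 6880 and 6881) that had received 250000 cells of Met1, a mouse breast cancer line, in the mammary fat pad at 8 weeks of age and were killed 2 weeks later, and breast tumor came from 3 of these mice (6877, 6880 and 6881). The series asks how a distant mammary tumor affects gene expression in the lung. All tumors grew from 1 cell line, each piece of tissue holds host cells as well, and no label states whether normal mice received an injection. Preparation batch 1 held lungs 6886 and 6888 of normal mice and lungs 6879, 6880 and 6881 of tumor-bearing mice, and batch 2 held everything else, including every tumor. The mouse was the replicate (4 normal lungs, 4 tumor-bearing lungs, 3 tumors), with the batch 1 library standing for each normal mouse prepared in both batches.

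Histone mRNAs of this kind are made in S phase, when the cell copies its DNA, and fall when replication ends. Instead of a poly(A) tail, they end shortly after a conserved stem-loop, which is bound by the stem-loop binding protein (Slbp) and cut by a machinery guided by the U7 small nuclear RNA. Some members also yield polyadenylated transcripts in differentiated cells. The genes lie in clusters of many near-identical copies, so a short read can fit several members. The libraries were made from total RNA by removal of ribosomal RNA, a preparation that does not select for poly(A) tails.

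The stem-loop was searched in the M21 transcripts as GGNNNTTTTNANNNCC on the sense strand, with arms of 6 bases that pair. It was found in 44 of 67 members (4 H1, 11 H2A, 10 H2B, 8 H3 and 11 H4), against 11 of 21834 other protein-coding genes (0.0504%). The form in H1, H2A, H2B and H3 was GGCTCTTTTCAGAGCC in 26 members, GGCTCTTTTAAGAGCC in 6 and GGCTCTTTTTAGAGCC in 1. The H4 members carried other letters in the arms: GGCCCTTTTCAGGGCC in 7, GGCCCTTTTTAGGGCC in 2 and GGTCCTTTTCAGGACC in 2. The following examples cover each form, as DNA letters of the GRCm38 transcripts, with the stem-loop in capitals and up to 5 flanking bases on each side in lower case.
Hist1h1c: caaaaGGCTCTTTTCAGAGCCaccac
Hist2h2aa2: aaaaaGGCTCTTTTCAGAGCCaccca
Hist2h2ac: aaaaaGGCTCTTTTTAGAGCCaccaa
Hist1h2bb: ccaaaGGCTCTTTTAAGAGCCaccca
Hist1h3b: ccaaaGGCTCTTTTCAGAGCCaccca
Hist1h3c: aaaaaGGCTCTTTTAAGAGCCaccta
Hist1h4h: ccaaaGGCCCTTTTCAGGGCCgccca
Hist1h4i: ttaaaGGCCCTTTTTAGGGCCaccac
Hist1h4j: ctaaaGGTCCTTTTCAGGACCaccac
The polyadenylation signal AATAAA stood in the last 40 bases of an annotated transcript in 14 members, Hist1h1c, Hist2h2be, Hist2h4, Hist3h2a and Hist4h4 among them, against 64.2% of other protein-coding genes. Many M21 models of histone genes stop at or before the stem-loop, so its absence from a model, as for Hist1h1a, Hist1h2ba, Hist1h2bc, Hist1h4k and Hist2h2bb, says only that these letters are not in the annotated transcript.

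Promoters are shown for the H2B and H4 members with the highest TPM, Hist2h2bb and Hist1h4k, and for Hist1h1a, the H1 member with the largest fold change in tumors. Each is the stretch of 250 bases before the start of the gene, from RefSeq (GRCm38.p6), read 5′ to 3′ on the strand of the gene. Capitals mark matches on either strand to the CCAAT box, to the TATA box (the letters TATAAA) and to the octamer ATTTGCAT, a match on the reverse strand appearing as its reverse complement.
Hist2h2bb promoter, chr3:96269450-96269699, strand plus: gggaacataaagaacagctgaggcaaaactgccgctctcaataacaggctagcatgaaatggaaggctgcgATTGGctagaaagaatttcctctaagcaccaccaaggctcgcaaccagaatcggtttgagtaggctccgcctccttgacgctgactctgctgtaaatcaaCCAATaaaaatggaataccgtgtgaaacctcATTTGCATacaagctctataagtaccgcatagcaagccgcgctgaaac
Hist1h1a promoter, chr13:23763418-23763667, strand plus: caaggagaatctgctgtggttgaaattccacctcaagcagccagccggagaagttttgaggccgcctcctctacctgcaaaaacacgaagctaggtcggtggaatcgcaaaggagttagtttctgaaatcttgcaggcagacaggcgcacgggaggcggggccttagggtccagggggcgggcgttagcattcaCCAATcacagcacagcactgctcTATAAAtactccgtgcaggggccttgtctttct
Hist1h4k promoter, chr13:21750554-21750803, strand minus: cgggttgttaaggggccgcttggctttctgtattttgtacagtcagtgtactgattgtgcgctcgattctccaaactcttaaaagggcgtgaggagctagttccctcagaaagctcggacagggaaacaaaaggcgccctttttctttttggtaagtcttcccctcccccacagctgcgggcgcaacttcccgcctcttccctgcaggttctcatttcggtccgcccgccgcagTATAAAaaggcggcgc
RefSeq windows were matched for 61 of 67 members, and the 250 bases before the start were searched on both strands. The octamer, which is known from H2B promoters, was found in 7 of 16 H2B and 7 of 17 H2A windows and in none of the H1, H3 and H4 windows, against 1.81% of the windows of 27025 genes. CCAAT was found in 50 of 61 members (37.5% of all windows), with 3 of 12 among H4. TATAAA was found in 29 of 61 (14.3%), and the H1 box AAACACA in 5 of 6 H1 windows (7.20%). The H1 window without it was that of Hist1h1a, printed above. All 12 pairs of members that start within 500 bases of each other on opposite strands paired an H2A gene with an H2B gene. A window shared by such a pair holds the same octamer for both.

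The deposited estimated counts summed to 8321037 to 13982903 per library. Lung libraries carried 9730 to 20279 CPM (counts scaled to a fixed total per library with TMM factors) over 7 markers of lung epithelium such as Sftpc, and the tumors 4.06 to 28.2. The tumors carried 868 to 1203 CPM over 6 epithelial genes such as Krt8 and Epcam, and the lungs 329 to 560, so the labelled tissues matched their markers. The members took 2.02 to 2.35% of protein-coding counts in the tumors and 0.0897 to 0.253% in the 10 lung libraries.

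Every histone type was far higher in the tumors than in either lung (the plot of summed TPM by type). The level per length, as TPM, a count divided by length and scaled to a fixed total, summed over the members of a type, was highest for H4, at 233 ± 36.7 (SD, n = 4) in normal lung, 124 ± 63.4 (n = 4) in tumor-bearing lung and 1679.5 ± 403.5 (n = 3) in tumors. H2B stood at 58.7 ± 10.7, 24.2 ± 20.1 and 841 ± 292 TPM, and H3 at 25.8 ± 8.04, 18.1 ± 9.15 and 594 ± 157 TPM, in the same order. H2A stood at 32.3 ± 5.18, 16.0 ± 9.69 and 433 ± 172 TPM and H1 at 24.1 ± 4.74, 13.1 ± 6.59 and 237 ± 65.8 TPM. In tumors the order by mean TPM was therefore H4, H2B, H3, H2A and H1. By mean of the summed CPM it was H4 (3828), H3 (2440), H2B (2306), H1 (1777) and H2A (1380). On TPM, H4 lay above H2B in each tumor. Within each tumor H3 also lay above H2A and H2A above H1, although the ranges over the tumors overlapped. H2B lay above H3 in tumors 6877 and 6881 but not in tumor 6880 (549 against 573 TPM). In each normal lung library H2A lay above H3 and H1, while H3 and H1 changed order between lungs. The ratio of the tumor mean TPM to the normal lung mean TPM was 23.0 for H3, 14.3 for H2B, 13.4 for H2A, 9.83 for H1 and 7.21 for H4. Among all counts of members, H3 made up 17.4 to 25.0% in the tumors and 6.73 to 14.2% in the 10 lung libraries, and H4 32.2 to 33.1% in the tumors and 41.9 to 52.4% in the lungs, without overlap for either type. The sums weigh a few members heavily. Without Hist1h4k, which alone reached 810 ± 164 TPM in the tumors, the H4 ratio was 5.43. The length behind that TPM, read from the ratio of count to TPM in tumor 6877, was 5.65% of the median protein-coding gene for Hist1h4k, 13.8% for Hist1h4m and 184% for Hist4h4, so the order of members by TPM rests on the lengths used by the authors.

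**Figure D1:**
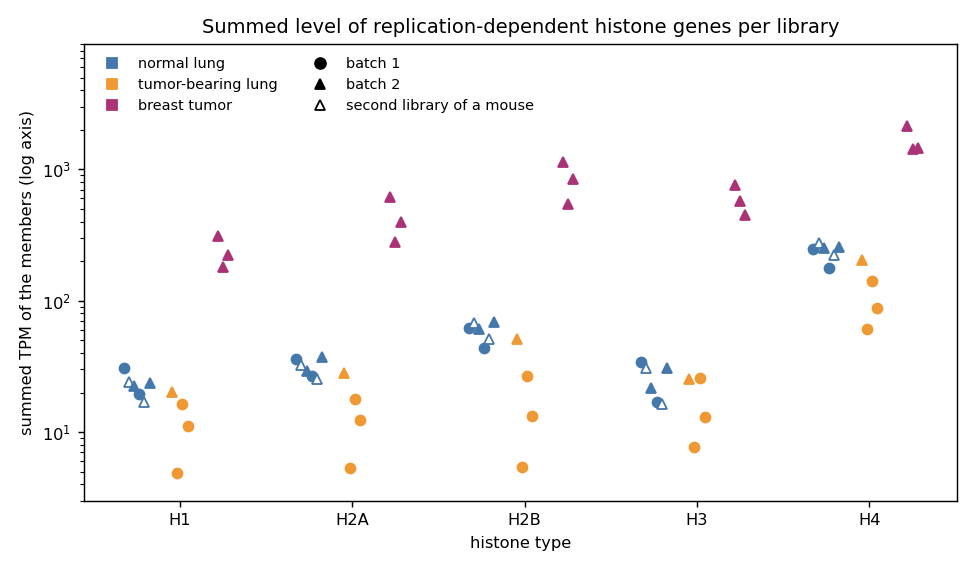
Summed TPM (log axis) of the members of each histone type in each of the 13 libraries, colored by group, with circles for batch 1, triangles for batch 2 and open triangles for the second library of a normal mouse. The 3 tumors lie above all 10 lung libraries for each type, and H4 is the highest type in each group.

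Breast tumor was first set against normal lung. With edgeR's quasi-likelihood test and a batch term, 59 of 63 tested members rose (adjusted p under 0.05), against 24.5% of the 18297 genes tested, and the median log2 fold change over the members was 3.81, a 14.1-fold difference, against −0.04 over all genes. No member fell, at the threshold or at an unadjusted p under 0.05, by edgeR, DESeq2, voom or limma on log2 TPM, where edgeR called 24.7% of all genes lower. Fold changes here and below are on the log2 scale of the fitted counts. The tumors all lay above all 10 lung libraries for 57 of the 63 members, against 22.6% of all genes tested. The other 6 were Hist1h2aa, Hist1h2ao, Hist1h2bq, Hist1h4n, Hist2h2aa1 and Hist2h2be. Hist2h3c1 was at 0 counts in every library and Hist1h1t, a testis H1, at no more than 0.546 CPM, and both were below the filter on low counts. In bulk tissue a larger share of cells that make histone mRNA and more histone mRNA per cell cannot be told apart.

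The linker histones split by size of change. Hist1h1a was at 4.22, 1.15, 5.84 and 6.48 CPM in normal lungs 6886, 6888, 6887 and 6893, at 1.86, 3.54, 2.39 and 6.38 CPM in tumor-bearing lungs 6879, 6880, 6881 and 6877, and at 406, 233 and 289 CPM in tumors 6877, 6880 and 6881. The tumors stood far above all lungs in this gene, while the 2 lung groups overlapped. Its log2 fold change was 5.62 (SE 0.42, adjusted p = 8.99e-07), close to that of Hist1h1b (5.48, SE 0.39, adjusted p = 6.16e-07). Hist1h1d reached 702, 559 and 553 CPM and a log2 fold change of 3.95 (SE 0.29). Hist1h1c and Hist1h1e, the H1 members most expressed in lung by CPM, changed least. Hist1h1c, which also has polyadenylated transcripts, was at 74.3, 66.0, 87.0 and 75.0 CPM in the normal lungs, 37.4, 62.2, 52.3 and 78.9 CPM in the tumor-bearing lungs and 293, 213 and 229 CPM in the tumors. Its lungs overlapped, its tumors stood above them, and its log2 fold change was 1.49 (SE 0.23, adjusted p = 0.000223), with 1.77 (SE 0.26) for Hist1h1e. All 5 tested H1 members rose, with a median of 3.95.

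Of the H2A genes, 16 of 18 rose, with a median log2 fold change of 3.92. Hist2h2aa2, the H2A member with the highest TPM in normal lung, was at 32.5, 35.3, 51.0 and 40.8 CPM in normal lungs 6886, 6888, 6887 and 6893, at 17.8, 24.2, 21.9 and 44.8 CPM in tumor-bearing lungs 6879, 6880, 6881 and 6877, and at 353, 309 and 288 CPM in the tumors. The 3 tumors were alike and each stood above every lung (2.63, SE 0.22, adjusted p = 1.83e-06). Larger changes came from members of the chromosome 13 cluster that were low in lung, such as Hist1h2an (5.07, SE 0.80), Hist1h2ag (4.91, SE 0.37) and Hist1h2ae (4.50, SE 0.31). For Hist1h2an the value was 4.36 without normal lung 6887 and 5.97 without normal lung 6893. The H2A members on chromosomes 3 and 11 that passed the test changed less: Hist2h2ac by 2.76, Hist2h2aa2 by 2.63, Hist3h2a by 2.39 and Hist2h2ab by 2.16. Hist1h2aa, a testis form, did not pass the test (0.66, SE 0.59, at no more than 2.42 CPM in any library), and neither did Hist2h2aa1 (2.30, adjusted p = 0.130), whose value was 2.89 with an adjusted p of 0.0115 without tumor 6880 and 1.69 with an adjusted p of 0.331 without tumor 6877.

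Of the H2B genes, 15 of 16 rose, with a median of 3.65. Hist2h2bb, the H2B member with the highest TPM, was at 15.8, 11.9, 31.6 and 25.1 CPM in the normal lungs in the order above, at 5.35, 11.8, 7.61 and 28.2 CPM in the tumor-bearing lungs and at 636, 474 and 559 CPM in the tumors. The batch 2 lungs were the higher ones in both lung groups, and the tumors stood apart from all of them (4.12, SE 0.32, adjusted p = 1.23e-06). Hist1h2bc, known to give polyadenylated mRNA, was at 30.5, 31.7, 42.2 and 38.8 CPM in the normal lungs, 16.8, 19.0, 23.0 and 35.3 CPM in the tumor-bearing lungs and 192, 147 and 142 CPM in the tumors. Its 3 tumor-bearing lungs of batch 1 were below all normal lungs, and its log2 fold change in tumors was 1.87 (SE 0.20, adjusted p = 1.48e-05). Hist1h2be changed by 1.94 (SE 0.39) and Hist1h2bf by 4.59 (SE 0.37). Hist2h2be, an H2B gene known for polyadenylated mRNA in cells that no longer divide, was at 1.99, 2.22, 3.05 and 1.64 CPM in normal lungs, 2.49, 2.19, 3.04 and 2.32 CPM in tumor-bearing lungs and 3.11, 4.21 and 1.95 CPM in tumors. The 3 groups overlapped and the test was not passed (0.45, SE 0.40, adjusted p = 0.378), while Hist2h2ac, which starts 239 bases away on the other strand, rose.

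Hist1h2ba, a testis-specific H2B, had most of its counts in 1 tumor. It had 25, 868 and 36 counts in tumors 6877, 6880 and 6881 (2.99, 67.7 and 2.81 CPM), 3, 0, 0 and 0 counts in the libraries of the fit of normal lungs 6886, 6888, 6887 and 6893, and 1 count in all tumor-bearing lungs together (estimated counts rounded). The second libraries of lungs 6886 and 6888, at 0.298 and 0.263 CPM, entered neither these counts nor the ratio that follows. The summed counts of the tumors stood 429-fold above those of the normal lungs after scaling, with an exact 95% counting interval of 146 to 2083, and that interval does not cover the spread between tumors. The fitted log2 fold change of 10.81 (SE 2.49, adjusted p = 0.00500) fell to 7.71 (SE 1.39, adjusted p = 0.00187) without tumor 6880. The test was missed with voom (adjusted p = 0.0729), and DESeq2 gave no adjusted p.

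The H3 genes had the highest median of any type, 4.71, and all 11 tested rose. Hist1h3h, the H3 member with the highest TPM, was at 12.7, 7.73, 14.2 and 21.7 CPM in normal lungs 6886, 6888, 6887 and 6893, at 12.7, 22.1, 9.35 and 18.9 CPM in tumor-bearing lungs 6879, 6880, 6881 and 6877, and at 520, 500 and 311 CPM in the tumors. Both lung groups covered the same range, and the tumors lay far above it (4.71, SE 0.39, adjusted p = 1.88e-06). Hist2h3b changed by 4.52 (SE 0.37), Hist1h3b by 5.56 (SE 0.37), Hist2h3c2 by 5.11 (SE 0.39) and Hist1h3a by 4.76 (SE 0.31). Hist1h3g changed by 5.59 (SE 0.61), and by 4.90 without normal lung 6887. Hist1h3e had the smallest p of all members (3.22, SE 0.19, adjusted p = 1.82e-07) together with the smallest fold of its type.

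The H4 genes had the lowest median of any type, 2.75, and 12 of 13 rose. Hist1h4k, the most abundant member by TPM, was at 47.5, 31.3, 88.3 and 73.6 CPM in normal lungs 6886, 6888, 6887 and 6893, at 59.7, 54.4, 37.5 and 82.4 CPM in tumor-bearing lungs 6879, 6880, 6881 and 6877, and at 918, 930 and 651 CPM in the tumors (3.42, SE 0.27, adjusted p = 1.27e-06). Hist1h4h was at 48.9, 46.6, 91.7 and 93.8 CPM in the normal lungs, 29.7, 31.3, 26.8 and 80.5 CPM in the tumor-bearing lungs and 398, 318 and 318 CPM in the tumors (1.77, SE 0.18, adjusted p = 1.11e-05). In both genes the tumors were above all lungs, and the libraries of batch 2 were the highest in either lung group. Hist4h4, the lone member on chromosome 6, changed by 2.75 (SE 0.19) and Hist1h4b by 3.99 (SE 0.29). The smallest H4 changes were those of Hist1h4d, Hist1h4h and Hist1h4c (1.78, SE 0.21). Hist1h4d changed by 1.66 (SE 0.26) and, at 109 ± 22.4 CPM (SD, n = 4), had the highest CPM of all members in normal lung. The member that missed the threshold, Hist1h4n (2.38, adjusted p = 0.0594), stood at 3.06 with an adjusted p of 0.0182 without tumor-bearing lung 6877, which enters the fit through the batch term, and at 1.74 with an adjusted p of 0.181 without tumor 6881.

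**Figure D2:**
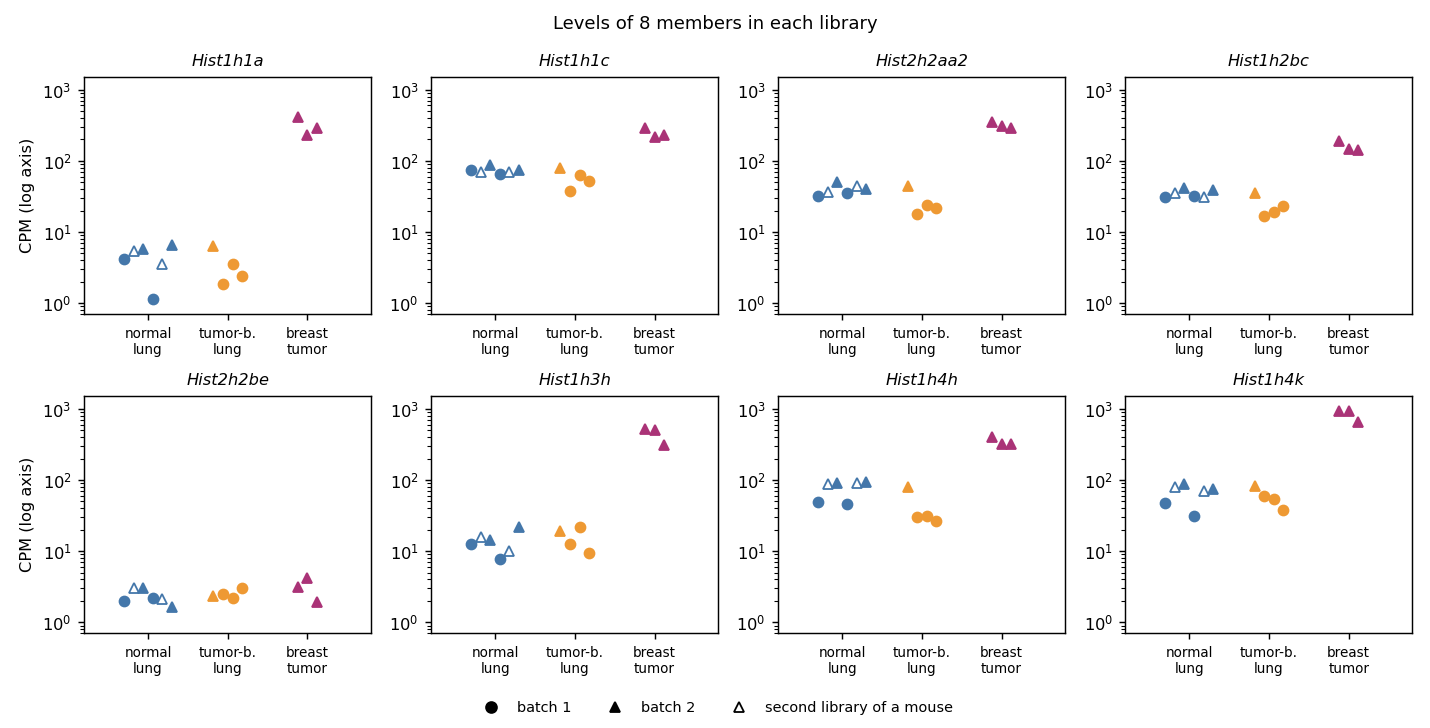
CPM (log axis) of 8 members in each of the 13 libraries, by group, with circles for batch 1, triangles for batch 2 and open triangles for the second library of a normal mouse. Hist1h1a rises from at most 6.48 CPM in lung to at least 233 CPM in the tumors, Hist1h1c and Hist1h2bc start from a higher lung level, Hist2h2be overlaps between the groups, and Hist1h4h is higher in batch 2 lungs than in batch 1 lungs.

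**Figure D3:**
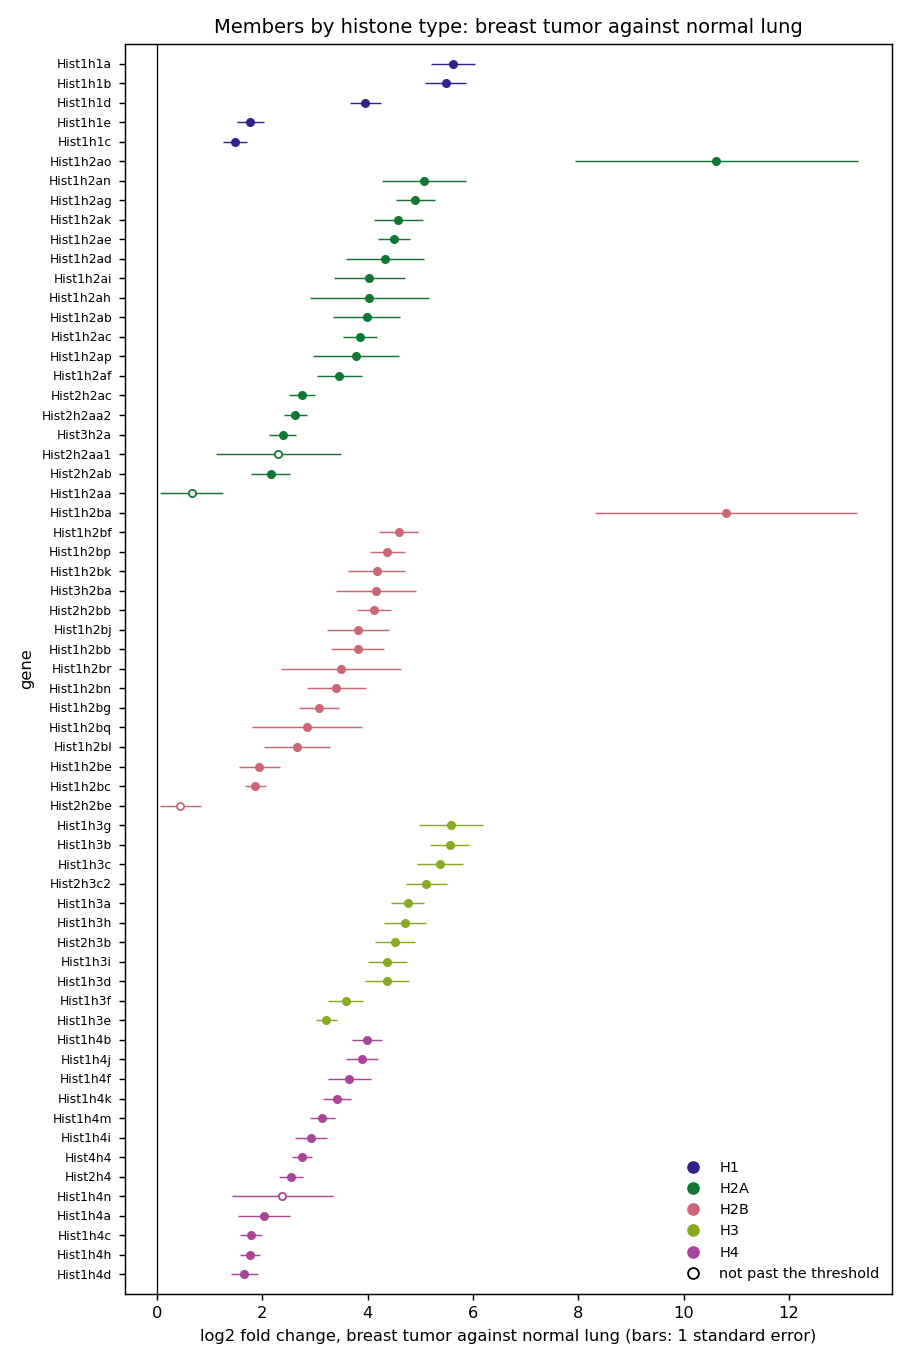
Log2 fold change of the 63 tested members in breast tumor against normal lung, with bars of 1 standard error, sorted within each histone type, with open circles for the 4 members that missed the threshold. H3 members lie between 3.22 and 5.59 and most H4 members lower, and the outlying values of Hist1h2ao and Hist1h2ba are fitted against groups with 0 to 3 counts and are not bounds.

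The size of the change went with features of the annotated transcript as follows, as a description of members that share sequence. The 19 tested members with over 100 annotated bases after the stem-loop had a median log2 fold change of 3.08, the 21 whose models end within 100 bases of it 3.98, and the 23 without a stem-loop in the model 4.03. The 12 members with AATAAA near the end of a transcript had a median of 2.80 and the 51 others 3.86. Among the 12 divergent pairs, leaving aside those of Hist1h2ao and Hist1h2ba, Hist2h2ac and Hist2h2be lay furthest apart (2.76 and 0.45), followed by Hist1h2ac and Hist1h2bc (3.86 and 1.87), while Hist1h2bf and Hist1h2ad stood at 4.59 and 4.33 and Hist1h2ap and Hist1h2br at 3.78 and 3.50. Differences between members were not tested.

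The same tumors were compared with the lungs of tumor-bearing mice. Here 56 of 63 members rose, against 22.6% of the genes tested, and the median log2 fold change was 4.10 against −0.10 over all genes. None fell, also at an unadjusted p under 0.05, by any of the 4 tools, where edgeR called 23.7% of all genes lower. Over all genes limma on log2 TPM called 4142 higher and 1180 lower, where edgeR called 4128 and 4343. The 2 tumor comparisons share the tumor libraries. By type, 5 of 5 H1, 14 of 18 H2A, 13 of 16 H2B, 11 of 11 H3 and 13 of 13 H4 members rose, with medians of 3.91, 4.34, 4.06, 4.50 and 3.18. Hist1h3e (3.33, SE 0.22, adjusted p = 4.84e-07), Hist1h4b (4.76, SE 0.32, adjusted p = 5.10e-07) and Hist4h4 (3.08, SE 0.21, adjusted p = 5.94e-07) had the smallest p. Hist1h4j changed by 4.57 (SE 0.33), Hist1h2bf by 5.22 (SE 0.41), Hist1h2ac by 4.62 (SE 0.36), Hist2h3c2 by 5.05 (SE 0.41), Hist1h4h by 2.29 (SE 0.20) and Hist1h2bc by 2.36 (SE 0.22). The 7 members that missed the threshold were Hist1h2aa, Hist1h2ah, Hist1h2ao, Hist1h2bq, Hist1h2br, Hist2h2aa1 and Hist2h2be (0.27, SE 0.45). Leaving out tumor-bearing lung 6877, the batch 2 lung of this group, raised Hist1h3g from 4.76 to 5.91, Hist1h4a from 3.10 to 4.22, Hist1h2bl from 3.79 to 4.81 and Hist2h3c2 to 5.69, and ended the call of Hist3h2ba (2.84 with it, 1.78 with an adjusted p of 0.452 without it).

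Tumor 6880 differed from the other tumors in its counts of some members, most of them near-identical copies. It lay over 3 times above both other tumors for 2 members and over 3 times below both for 4, while tumor 6877 did so for none and tumor 6881 for 1 (the plot of tumor 6880 beside the others). Hist2h2aa1, Hist1h4n, Hist1h2ah and Hist1h2br were at 0.546, 11.6, 3.04 and 2.58 CPM in tumor 6880, and at 35.2 to 46.9, 109 to 159, 35.2 to 56.5 and 14.4 to 18.6 CPM in the other tumors. Hist1h2ba (above) and Hist1h2ao were the higher ones, the latter at 33.1 CPM against 6.22 in tumor 6877 and 0 in tumor 6881. The annotated transcripts of Hist2h2aa1, Hist1h2ah, Hist1h2ao, Hist1h2br and Hist1h4n share 83.4 to 100% of their stretches of 75 bases, the length of a read, with other genes, but those of Hist1h2ba share 33.2%. Counts were also summed over 5 pairs of a member and a close copy, with differing results. In 3 pairs tumor 6880 came near the other tumors. Hist2h2aa1 and Hist2h2aa2 together gave 399.7, 309.7 and 323 CPM in tumors 6877, 6880 and 6881. Hist1h4m and Hist1h4n gave 654, 454 and 534 CPM, and Hist1h2ao and Hist1h2ap 152, 105 and 96.8 CPM. Most of the first 2 sums came from a partner that was itself alike between tumors. In tumor 6880 and the others, Hist2h2aa2 was at 309 and 288 to 353 CPM and Hist1h4m at 443 and 375 to 545 CPM. Those 2 sums cannot show whether counts moved between copies. In 2 pairs it stayed well below both: Hist1h2ah and Hist1h2ad gave 102, 26.9 and 74.6 CPM, and Hist1h2bq and Hist1h2br 19.8, 5.54 and 15.2 CPM. The pseudogene Hist1h2aj, at 446 CPM in tumor 6880 and 124 and 86.2 in the others, also took more counts there. Values of single copies that share most of their sequence are uncertain, and the cause of the difference was not tested. Over all members the median share of such stretches found in another gene was 42.4%, with 0.735% for H1, 71.5% for H2A, 42.1% for H2B, 59.0% for H3 and 24.6% for H4. Among the members of high TPM described above, it was 100% for Hist2h2aa2, Hist2h2bb and Hist2h3b. For Hist1h3h it was 93.5%, for Hist1h4k 68.1% and for Hist1h1d 1.47%. Hist1h2ao was at 0 counts in the 4 normal lung libraries of the fit. In the second library of lung 6886, prepared in batch 2 and outside the fit, it was at 0.595 CPM. Against the 4 libraries of the fit the tumors were at least 220-fold higher, from 476 counts against a floor of 3 counts. That bound rests mostly on tumor 6880, and the fitted log2 fold change, itself no bound, was 10.61 with it and 8.47 without it. Summed with Hist1h2ap, the tumors had a mean of 118 CPM and the normal lungs one of 4.45 CPM.

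**Figure D4:**
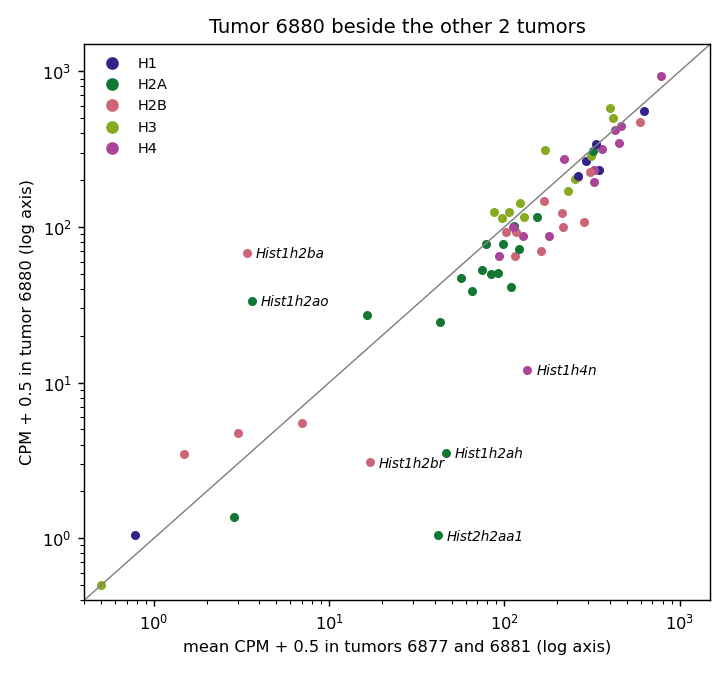
CPM plus 0.5 of each member in tumor 6880 against the mean of tumors 6877 and 6881 (both axes log), colored by histone type, with the line of equal values. The 6 named members lie over 3 times above or below both other tumors, and most others lie near the line.

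In tumor-bearing against normal lung no member passed the test. With edgeR 0 of 56 tested members were called, against 0.0359% of 16727 genes, and the median log2 fold change was −0.35, with 15 members above 0, against a median of 0.01 over all genes. At an unadjusted p under 0.05, 13 members were lower and 0 higher, where 7.87% and 6.13% of all genes were lower and higher. DESeq2 called 1 member lower, Hist1h4h (adjusted p = 0.0413), where it called 1.67% of genes lower, voom called 0 (0.0359% of genes), and limma on log2 TPM 0 (0.538% of genes). The last had 36 members lower at an unadjusted p under 0.05, where 6702 of 16727 genes were lower as well. No member had all tumor-bearing lungs below all normal lungs (3.05% of genes) or all above (2.65% of genes).

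The 13 members with a low unadjusted p were 7 of H4, 3 of H2A and 3 of H2B. Hist1h4h, whose values are given above, was at −0.52 (SE 0.13, adjusted p = 0.194) and Hist1h2bc at −0.49 (SE 0.15, adjusted p = 0.231). Hist1h2bg was at 14.1, 12.3, 29.7 and 31.4 CPM in normal lungs 6886, 6888, 6887 and 6893 and at 3.73, 10.1, 3.48 and 18.8 CPM in tumor-bearing lungs 6879, 6880, 6881 and 6877, with a log2 fold change of −0.99 (SE 0.32, adjusted p = 0.259). Within each batch its tumor-bearing lungs were below its normal lungs. Hist1h4b stood at −0.79 (SE 0.28, adjusted p = 0.282) and Hist1h4a at −1.07 (SE 0.38, adjusted p = 0.283). Of the H3 members 7 of 11 were above 0, with a median of 0.15, where 8619 of all 16727 genes were above 0. On log2 TPM 2 of 11 were above 0, with a median of −0.27, where 1113 of all 16727 genes were above 0. The summed H3 TPM above was also lower in tumor-bearing lung. The sign for H3 therefore depends on the scaling, and the shift was not particular to H3. The smallest p among members above 0 belonged to Hist1h3c (0.73, SE 0.34, adjusted p = 0.370), with Hist1h3g at 0.80, Hist1h3a at 0.37, Hist1h3h at 0.37 and Hist1h4k at 0.24. The medians of the other types were −0.00 for H1, −0.36 for H2A, −0.64 for H2B and −0.42 for H4. On the TPM scale, where the median of all genes moved to −0.23, that of the members was −0.54.

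The values differed between the preparation batches. Within batch 1 (2 normal and 3 tumor-bearing lungs) the median over members was −0.43, with H2B at −0.88, H4 at −0.57 and H3 at −0.03. Within batch 2 (4 normal lungs and 1 tumor-bearing lung) it was 0.01, with H2B at −0.01, H4 at −0.16 and H3 at 0.30, where the lone tumor-bearing lung is assumed to vary like the normal lungs. That mouse, 6877, and batch 2 cannot be told apart in this contrast. Hist1h4h was at −0.68 (SE 0.16, adjusted p = 0.116) within batch 1 and at −0.17 (SE 0.12, adjusted p = 0.714) within batch 2. The normal lungs prepared in both batches gave the same genes at other levels: Hist1h4h rose from 48.9 to 88.3 CPM in lung 6886 and from 46.6 to 90.7 in lung 6888, and Hist1h4m from 19.4 to 45.8 and from 18.1 to 44.4. By CPM, 42 of the 56 members were higher in batch 2 in both mice, with medians of 0.37 and 0.58 on the log2 scale, and 5782 of 16727 genes were, with medians of −0.01 and −0.01. Among H4, 12 of 13 members were higher in both mice (medians of 0.58 and 0.93). The medians were 0.16 and 0.95 for H1, 0.55 and 0.78 for H2B, 0.31 and 0.37 for H3 and 0.23 and 0.25 for H2A. On summed TPM the direction depended on the type. Batch 2 over batch 1 in lungs 6886 and 6888 was 0.78 and 0.86 for H1 and 0.89 and 0.94 for H2A. It was 0.90 and 0.97 for H3, 1.08 and 1.17 for H2B and 1.11 and 1.24 for H4. Over all members it was 1.04 and 1.16, against 1.36 and 1.57 on summed CPM. Protein-coding genes took 68.2 to 69.6% of counts in the batch 1 normal lungs, 49.0 to 59.0% in the batch 1 tumor-bearing lungs and 45.6 to 54.7% in the batch 2 lungs, and the part of this difference in the histone values was not tested.

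**Figure D5:**
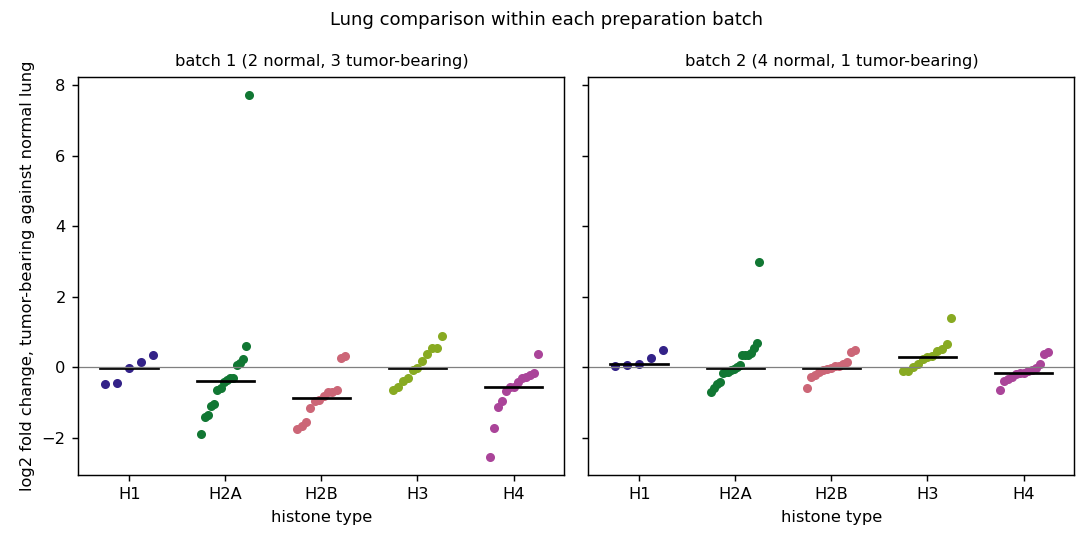
Log2 fold changes of members in tumor-bearing against normal lung within preparation batch 1 (left) and batch 2 (right), by histone type, with the median of each type as a bar. H2B and H4 medians lie at −0.88 and −0.57 in batch 1 and near 0 in batch 2, and the highest H2A point in batch 1 is Hist1h2ao, which had 0 counts in the normal lungs of that batch.

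Sums over markers of other cell types are given for the 2 lung groups with both batches pooled, and the ranges overlapped for each list. Some sums also differed by batch in the same normal lungs. From batch 1 to batch 2 the endothelial sum went from 1567 to 950 CPM in lung 6886 and from 1874 to 927 in lung 6888. The red cell sum went from 12493 to 27983 CPM and from 6888 to 20089 CPM. The sum over 4 neutrophil markers such as S100a8 was 50.4 to 138 CPM in tumor-bearing lungs and 9.51 to 61.7 CPM in normal lungs, and 4 of 4 had a positive change at an unadjusted p under 0.05. The 5 endothelial markers summed to 792 to 1305 CPM and 823 to 1874 CPM, 4 of 5 being lower at an unadjusted p under 0.05, and the 6 red cell markers to 4120 to 17614 CPM and 6888 to 18320 CPM. The 4 B cell markers gave 20.9 to 33.9 and 9.77 to 31.0 CPM, the 4 T cell markers 16.5 to 26.8 and 13.1 to 27.8 CPM and the 6 markers of neutrophil precursors 1.42 to 29.8 and 1.60 to 5.75 CPM. With edgeR none of these lists had a marker past the adjusted threshold, DESeq2 called 3 neutrophil, 1 endothelial and 1 B cell marker, and the part of these cells in the histone values was not tested.

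Among the genes that make and handle histone mRNA the changes in tumors were smaller in median than among the members, a difference that was not tested. Of 12 tested genes of histone transcription and 3′ processing, 6 rose and 0 fell against normal lung (median 0.97), and 8 rose and 0 fell against tumor-bearing lung (median 1.00). Slbp, the stem-loop binding protein, was at 29.3, 41.5 and 31.7 CPM in the tumors and at 14.6 to 15.7 CPM in normal lungs (1.12, SE 0.19, adjusted p = 0.000517). Lsm11, a subunit of the U7 particle, changed by 1.13 (SE 0.30), Cpsf2, a subunit of the cleavage complex, by 1.25 (SE 0.21), and Eri1, an exonuclease that trims histone mRNA, by 1.06 (SE 0.23). Npat, the coactivator of histone transcription at the histone locus body, was at 0.98 (SE 0.42, adjusted p = 0.0718) against normal lung. It was at 1.28 (SE 0.46, adjusted p = 0.0389) against tumor-bearing lung.

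Of the 22 histone chaperones, 16 rose and 1, Ubn1, fell in tumors against normal lung (median 1.19). Nasp, a chaperone of H3 and H4, changed by 2.79 (SE 0.18) and Chaf1a, a subunit of the CAF-1 complex that loads histones at replication forks, by 3.14 (SE 0.29). Npm1 changed by 2.75 (SE 0.24). The replacement variants, which are made outside S phase as well and from polyadenylated mRNA, were divided: 6 of 11 rose and 1 fell (median 0.81). H2afx, whose mRNA has both kinds of ends, changed by 3.88 (SE 0.25), Cenpa, the centromeric H3, by 3.43 (SE 0.27) and H3f3b by 2.56 (SE 0.23). H3f3a, which codes for the same H3.3 protein as H3f3b, was at 0.29 (SE 0.26), and H2afy2, a macroH2A, fell by 3.24 (SE 0.31), from 6.27 to 10.4 CPM in normal lungs to 0.550 to 0.936 CPM in the tumors. DNA replication genes rose in 35 of 36 (median 2.36), with Tk1 at 3.72 (SE 0.26) and Mcm6 at 3.81 (SE 0.30), and mitotic genes in 12 of 12 (median 4.01), with Birc5 at 6.97 (SE 0.29) and Ccnb1 at 5.36 (SE 0.42). These lists were chosen with earlier results of the data known. In tumor-bearing against normal lung none of the 91 tested genes of these 5 lists passed the edgeR threshold. An unadjusted p under 0.05 was found for 5 of the 91, a smaller share than the 2342 of all 16727 genes. The 5 were Rfc5 (0.83, SE 0.15), Aurkb (1.17, SE 0.41), Ccne2 (−1.31, SE 0.35), H2afz (−0.83, SE 0.29) and H3f3a (−0.45, SE 0.15). DESeq2 called 1 of them, Rfc5 (adjusted p = 0.00403), and voom 0, while mitotic genes had a median of 0.37 and replication genes of 0.01.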

How the data were processed

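Total RNA of 13 libraries was depleted of ribosomal RNA and sequenced as single reads of 75 bases, per the labels' protocols, which also state that fragmentation depended on RNA quality. Estimated counts and TPM per gene were deposited by the authors. The submitters' processing notes name Salmon, DESeq2 1.18.1 and mm10, and how counts were summed per gene is not given in the sources used here. Names came from GENCODE M21 (46269 of 46679 IDs, 410 unmatched), and 0 columns belonged to no sample.

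Estimated counts were rounded and tested in R 4.3.3 with edgeR 4.0.16 (TMM, filterByExpr, quasi-likelihood, group plus preparation batch, Benjamini-Hochberg over all genes, threshold 0.05). The 2 tumor comparisons used all 3 groups and the lung comparison the lungs alone. Alternatives were DESeq2 1.42.0, voom and limma 3.58.1 on log2(TPM + 1) or log2(TPM + 0.1), other scaling, no filter, no batch term, other uses of repeat libraries, single batches, each library left out and the mouse as a block. The steps were tested on simulated data. Ratios against groups of 0 counts used a floor of 3 counts over the group, and 95% exact intervals cover counting error only.

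Tumor and lung of mice 6877, 6880 and 6881 come from the same animals. Their deviations from a fit of group and preparation batch correlated at 0.18, 0.036 and −0.13 over 18297 genes. Members were named by p (12 with the smallest p past the threshold in each direction, or 5 where fewer than 5 passed), with the members highest in TPM and the given markers. Others named were chosen after their values were seen. Members and gene lists were chosen with earlier results of these data known.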

Additional observations from a re-analysis of the deposited data

Results flagged for a closer look

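The members named by rule and the sums by histone type were looked at in the 4 normal and the 4 tumor-bearing lungs, 76 groups of values in all, for a library whose gap to the nearest other exceeded 0.83 of the range. Chance marks about 1 in 20 such groups, and 9 were found. In 5 of them the library apart was tumor-bearing lung 6877, which was prepared in batch 2 while the other 3 of its group were prepared in batch 1. Hist1h4h was at 80.5 CPM there and at 26.8 to 31.3 in the other 3. Hist1h4a was at 26.5 CPM against 2.98 to 6.44, and Hist1h4j at 5.80 against 1.62 to 2.25. Hist1h2an was at 6.57 CPM against 0 to 1.01, and Hist1h3g at 5.99 against 1.74 to 2.38. Tumor-bearing lung 6879 had 1.49 CPM of Hist1h3b, where the others had 3.47 to 3.48. Normal lung 6888 had 4.17 CPM of Hist1h4b, where the others had 5.67 to 5.93. Hist1h2ba was at 0.23 CPM in normal lung 6886 and at 0.064 CPM in tumor-bearing lung 6880, and at 0 in the other libraries looked at in each group, so that both rest on a few reads at most.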

How the results depend on the processing

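The number of members that rose in tumors was 54 to 61 against normal lung and 53 to 60 against tumor-bearing lung over the alternatives, and 56 to 60 and 53 to 58 with each library left out, and in each of these 0 fell. With mouse, batch and tissue in 1 fit (the replicate block, all 13 libraries), 56 rose against tumor-bearing lung, with a median log2 fold change of 4.29. In tumor-bearing against normal lung, 0 members were called with any library left out (0 to 0 in either direction), 1 was lower with DESeq2 and 1, Hist1h2ao, higher with no filter on low counts. There the median over members ran from −0.45 (without tumor-bearing lung 6877) to −0.27 (without tumor-bearing lung 6879), and was −0.59 with no batch term and 0.01 with the batch 2 libraries of the repeated mice. The log2 ratio of summed H4 TPM in tumors against normal lung was 2.85, and 2.44 without Hist1h4k. The cause was not tested.

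Genes named by rule were refitted under each alternative, and among these none reversed a call. Lsm11, Npat and Ubn1 were not followed in this way, and members named outside the rule only with single libraries left out. Against normal lung, Hist1h4d missed the threshold on log2 TPM (adjusted p = 0.0586 and 0.0708 for a pseudocount of 0.1 and 1), as did Hist1h1c (0.0514 for 0.1), Slbp (0.0831 for 0.1), Cpsf2, Cstf2 and Eri1. Hist1h2ba missed it against tumor-bearing lung with voom (0.0869), with batch 2 alone (0.0535) and without tumor-bearing lung 6877 (0.109). Hist1h2ah lost its call against normal lung without tumor 6877 (0.0519) and Hist1h2bq without tumor 6880 (0.161), and Hist1h2br gained one against tumor-bearing lung without tumor-bearing lung 6881 (0.0283). Members at a few CPM in lung are limited by counting.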
